A study of Mus musculus with 6 samples.

Results

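The variable segments of the immunoglobulin heavy chain are described here, taken as every row of the deposited tables whose gene symbol starts with Ighv. The rule found 144 of 30803 rows, which carry 143 symbols in 15 families, the family being the number before the hyphen. The symbol Ighv1-13 stands on 2 rows. The GENCODE M21 annotation of mouse genome build GRCm38 gave a single gene for 142 of the symbols, 110 of them V genes and 32 V pseudogenes. All 142 lie on the minus strand of chr12:113572927-116000461. The same annotation names 183 Ighv symbols, and the other 40 were not analysed here.

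The libraries came from bone marrow of wild-type mice aged 5 months, kept under specific pathogen-free conditions, and all of their titles start with Ctrl. The strain is not named. Cells labelled as hematopoietic stem cells were sorted into a fraction with high surface MHC class II (MHCII-hi, 3 libraries) and a fraction with low MHC class II (MHCII-lo, 3 libraries). MHC class II is the protein complex that presents peptides to helper T cells. The comparison asks how the transcriptomes of these fractions differ, and no other treatment separates them. No source used here gives the gate that defined a stem cell, or says whether a library stands for 1 mouse or a pool. The p-values below therefore measure the spread between libraries, which may be technical.

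A heavy chain gene is assembled in developing B cells, when the RAG recombinase joins 1 V segment to a D and a J segment in front of the constant regions. Each V segment has its own promoter and a short leader exon, so it can be transcribed before joining, as a germline transcript, as well as after it, as part of an antibody messenger RNA. Transcription from a joined V segment is strong in B cells and strongest in antibody-secreting plasma cells, and a segment's share among such transcripts follows both how often it is joined and how far the cells that carry it have expanded. The deposited values are one level per gene and do not tell a joined from an unjoined V transcript.

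The segments resemble each other, and 3 sets of coding sequences are shown because results below turn on close relatives that reached different levels. They were read from the GENCODE M21 transcripts and give the last 300 coding bases, 5′ to 3′ on the coding strand, with capitals at each position where the members of the set differ. Ighv8-8 (chr12:115294062-115294504) and Ighv8-5 (chr12:115067560-115068002) differ at 14 of 358 coding bases, 12 of them in the part shown.
Ighv8-8: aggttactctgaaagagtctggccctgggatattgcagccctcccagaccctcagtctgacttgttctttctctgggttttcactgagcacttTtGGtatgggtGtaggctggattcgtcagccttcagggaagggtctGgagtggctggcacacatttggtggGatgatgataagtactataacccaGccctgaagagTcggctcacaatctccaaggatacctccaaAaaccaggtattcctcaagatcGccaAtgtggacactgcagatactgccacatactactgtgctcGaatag
Ighv8-5: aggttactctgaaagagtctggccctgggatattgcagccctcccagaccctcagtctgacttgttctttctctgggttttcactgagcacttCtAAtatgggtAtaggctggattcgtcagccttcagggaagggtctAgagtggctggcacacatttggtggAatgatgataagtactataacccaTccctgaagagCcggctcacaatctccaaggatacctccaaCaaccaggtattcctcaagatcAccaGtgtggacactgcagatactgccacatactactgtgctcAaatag

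Ighv9-2 (chr12:114109001-114109430), Ighv9-1 (chr12:114093928-114094358) and Ighv9-3 (chr12:114140692-114141122) have 351 coding bases each and differ among themselves at 29 positions, 23 of them in the part shown. Ighv9-2 has 15 mismatches with Ighv9-1 and 20 with Ighv9-3.
Ighv9-2: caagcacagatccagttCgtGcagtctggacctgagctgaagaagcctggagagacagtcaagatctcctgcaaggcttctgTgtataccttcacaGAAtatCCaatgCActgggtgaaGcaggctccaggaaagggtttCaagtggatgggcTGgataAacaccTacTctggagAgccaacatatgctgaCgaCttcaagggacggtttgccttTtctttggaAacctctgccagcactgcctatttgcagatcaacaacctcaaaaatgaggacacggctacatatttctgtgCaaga
Ighv9-1: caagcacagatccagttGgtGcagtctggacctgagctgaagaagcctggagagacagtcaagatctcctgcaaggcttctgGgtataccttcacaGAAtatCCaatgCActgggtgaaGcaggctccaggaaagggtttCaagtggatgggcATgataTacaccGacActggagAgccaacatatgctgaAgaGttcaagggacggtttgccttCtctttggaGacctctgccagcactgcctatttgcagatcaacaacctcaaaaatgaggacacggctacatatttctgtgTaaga
Ighv9-3: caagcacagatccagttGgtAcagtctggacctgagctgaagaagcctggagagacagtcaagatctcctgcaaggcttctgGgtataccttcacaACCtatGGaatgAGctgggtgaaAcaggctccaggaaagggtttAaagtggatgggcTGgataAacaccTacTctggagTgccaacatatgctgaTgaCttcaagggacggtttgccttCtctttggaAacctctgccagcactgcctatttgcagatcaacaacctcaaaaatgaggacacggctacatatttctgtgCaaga

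Ighv11-1 (chr12:113981879-113982341) and Ighv11-2 (chr12:114048241-114048812) differ at only 4 of 353 coding bases, all in the part shown.
Ighv11-1: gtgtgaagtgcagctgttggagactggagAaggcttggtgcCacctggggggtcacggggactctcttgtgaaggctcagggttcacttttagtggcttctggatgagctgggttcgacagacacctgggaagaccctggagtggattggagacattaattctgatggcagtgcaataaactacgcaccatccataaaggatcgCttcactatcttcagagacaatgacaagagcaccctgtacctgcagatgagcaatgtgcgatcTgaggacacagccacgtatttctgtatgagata
Ighv11-2: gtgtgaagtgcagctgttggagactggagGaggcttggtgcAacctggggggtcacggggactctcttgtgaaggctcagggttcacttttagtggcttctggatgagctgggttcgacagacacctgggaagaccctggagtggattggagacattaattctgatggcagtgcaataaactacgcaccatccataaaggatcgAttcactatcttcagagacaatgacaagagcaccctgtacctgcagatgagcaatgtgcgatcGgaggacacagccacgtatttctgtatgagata

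Such likeness was common in the set. Of the 75-base windows of Ighv11-1, 34.4% occurred in another gene, and of those of Ighv11-2, 24.8%. Of the 99 segments abundant enough to test, 52 had another Ighv transcript with at least 95% identity, and 63 shared at least 1 window of 75 bases with another gene. No source used here says how reads that match several genes were shared out, so the level of a single segment with a close relative is uncertain. The 36 tested segments that shared no such window are given separately below.

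The labels were first checked against the transcripts of MHC class II itself. Cd74, the invariant chain, and the class II chains H2-Aa, H2-Ab1 and H2-Eb1 were 11.5, 10.97, 11.8 and 15.1 times as high in MHCII-hi by ratio of mean FPKM. Libraries correlated at r of 0.9905 to 0.9944 within a group and 0.9052 to 0.9095 across groups, over genes on the log2(FPKM + 1) scale. Read depth is unknown, because the files hold FPKM, fragment numbers scaled to transcript length and library size, and no counts. Defining stem cell markers differed in level, and some were low in both groups, with a mean FPKM of 0.05 in MHCII-lo, against 0.19 in MHCII-hi for Mecom and of 0.21 and 0.387 for Slamf1, whereas Kit stood at 10.9 and 10.8, Ly6a at 4.78 and 14.6, Gata2 at 9.79 and 23.8 and Cd34 at 14.8 and 15.7.

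Ighv transcripts were far more abundant in MHCII-hi. The 144 rows summed to 300.7, 256.7 and 253.3 FPKM in the 3 MHCII-lo libraries and to 6182, 6250 and 6157 FPKM in the 3 MHCII-hi libraries. Every MHCII-hi library lay far above every MHCII-lo library, and the ratio of the means was 22.9. As a share of all FPKM in a library, Ighv rose from 0.0882% ± 0.00859 (SD, n = 3) to 1.86% ± 0.0141 (SD, n = 3). In such bulk samples, more cells that carry these transcripts and more transcript per cell cannot be told apart.

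The rise ran through nearly the whole set. Testing was limited to means of 1 FPKM or more, which left 99 segments. Of these, 96 were higher in MHCII-hi by limma with Benjamini-Hochberg adjustment, against 27.2% of all 12295 genes tested, with adjusted p-values from 2.64e-09 to 0.00325. All 96 were at least 2-fold higher on the log2(FPKM + 1) scale, which 3.69% of all tested genes were, and in all 96 the libraries of the groups did not overlap, against 29.6% of tested genes with MHCII-hi above. No tested segment had a change below 0, while 40.5% of all tested genes were lower, and with median-of-ratios scaling the calls over all genes became 4095 higher and 4000 lower in place of 3348 and 4982. The median change was 3.74 (log2) over the 99 segments and -0.08 over all tested genes. A segment near 0 in MHCII-lo could pass the filter only by being high in MHCII-hi, so the count was repeated where this does not apply. Of the 63 segments with a MHCII-lo mean of at least 1 FPKM, 62 were higher, against 25.7% of such genes, all of them at least 2-fold, against 2.79%. Their ratios of mean FPKM ran from 4.41 to 126.7, with a median of 23.0 over the 63.

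**Figure D1:**
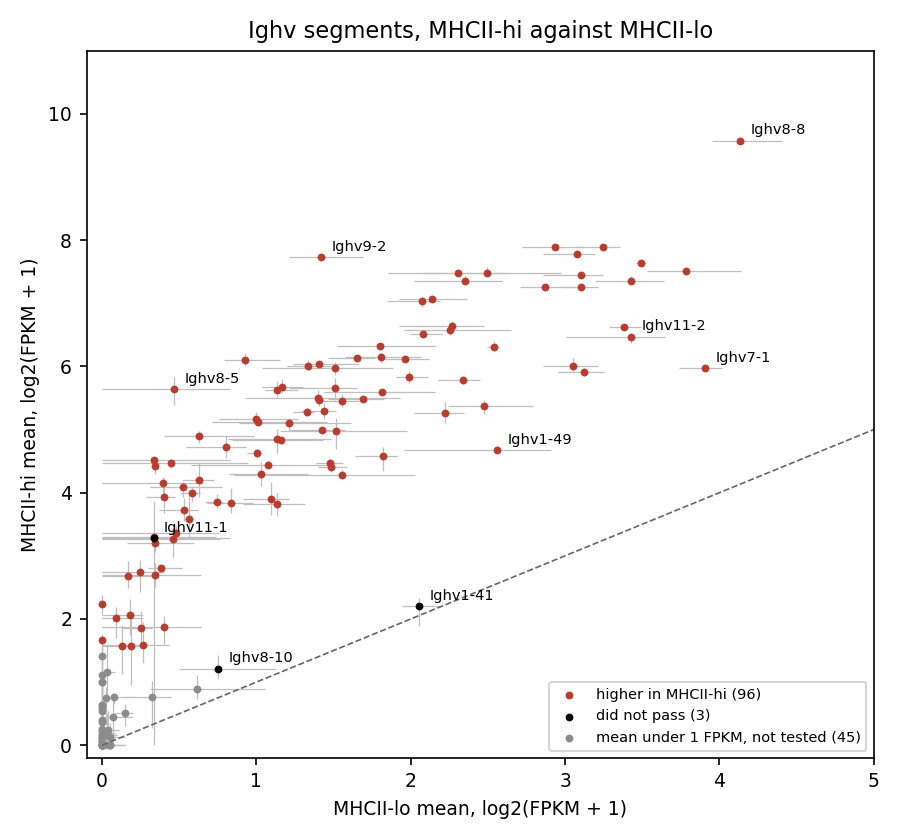
Mean level of each of the 144 Ighv rows in MHCII-lo (horizontal) and MHCII-hi (vertical), both as log2(FPKM + 1). Grey lines give the range of the 3 libraries, the dashed line marks equal levels, and colours give the limma call; 96 segments lie well above the dashed line, and Ighv1-41 and Ighv8-10 lie near it.

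The 45 rows under the filter were 29 annotated pseudogenes, 14 V genes and the 2 rows of Ighv1-13. Their highest value in any library was 2.4 FPKM, and 8 were listed at 0 in all 6 libraries. MHCII-hi lay above MHCII-lo without overlap in 11 of the 45, against 9.04% of all genes under the filter. Both counts include rows listed at 0 in all 6 libraries, which cannot separate the groups. How many such rows the wider set holds was not counted, so the shares may not be alike. A value of exactly 0 in such files can be a failed estimate. Of all 144 rows, 32 were listed at 0 in all MHCII-lo libraries, and only Ighv8-4 and Ighv1-2 of these, named after their values were seen, reached the filter. Ighv8-4 was listed at 0 in each MHCII-lo library and at 2.1, 2.32 and 2.09 FPKM in MHCII-hi, and Ighv1-2 at 0 and at 3.64, 3.24 and 4.19 FPKM. No fold is given for either.

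Ighv8-8, the first sequence shown, was the most abundant segment of MHCII-hi. Its level was 20.2, 15.0 and 14.5 FPKM in the MHCII-lo libraries and 766.8, 782.3 and 739.7 FPKM in the MHCII-hi libraries. The groups were far apart, with a log2 change of 5.46 ± 0.11 (SE; limma adjusted p = 1.06e-07) and a ratio of mean FPKM of 46.1. It supplied 12.01% to 12.5% of all Ighv FPKM in each MHCII-hi library. The segments next in order were Ighv3-6 at 237.4 ± 2.85 FPKM and Ighv1-78 at 235.6 ± 7.16 FPKM (SD, n = 3), which did not differ beyond their spread. In MHCII-lo the order at the top was flatter: Ighv8-8 led in libraries 1 and 2 and Ighv7-1 in library 3, and the leading segment supplied 5.85% to 6.70%.

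Ighv8-5, which matches Ighv8-8 at 96.1% of bases, was at 0, 0.78 and 0.37 FPKM in MHCII-lo and at 55.8, 40.9 and 49.5 FPKM in MHCII-hi. All MHCII-hi libraries were high, but the mean of 48.7 FPKM was a small part of the 763 FPKM of Ighv8-8. The log2 change was 5.20 ± 0.21 (SE; limma adjusted p = 1.98e-06), and 7.13 and 8.39 with pseudocounts of 0.1 and 0.01. The ratio of mean FPKM was 127.1, against a MHCII-lo mean of only 0.383 FPKM.

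The largest change on the log2(FPKM + 1) scale belonged to Ighv9-2, although Ighv8-5 exceeded it at both smaller pseudocounts, where Ighv9-2 changed by 6.94 and 7.02. At a pseudocount of 0.01, Ighv8-5 was not the only segment above it, since zeros in MHCII-lo weigh more there. Ighv9-2 was at 2.23, 1.47 and 1.31 FPKM in MHCII-lo and at 215.3, 211.7 and 207.8 FPKM in MHCII-hi. It moved from rank 47 among the Ighv rows of MHCII-lo to rank 5 in MHCII-hi, with a log2 change of 6.33 ± 0.12 (SE; limma adjusted p = 7.36e-08) and a ratio of 126.7. Its relatives Ighv9-1 and Ighv9-3, named after their values were seen, changed less. Ighv9-1 went from 1.83, 1.01 and 0.49 FPKM to 21.99, 19.9 and 20.4 FPKM, a log2 change of 3.41 ± 0.21 (SE). Ighv9-3 went from 11.5, 8.13 and 9.61 FPKM to 158.6, 172.2 and 157.2 FPKM, a log2 change of 3.94 ± 0.11 (SE). In MHCII-lo Ighv9-3 was therefore the most abundant of the 3, and in MHCII-hi Ighv9-2 was; these differences in change between the segments were not tested.

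**Figure D2:**
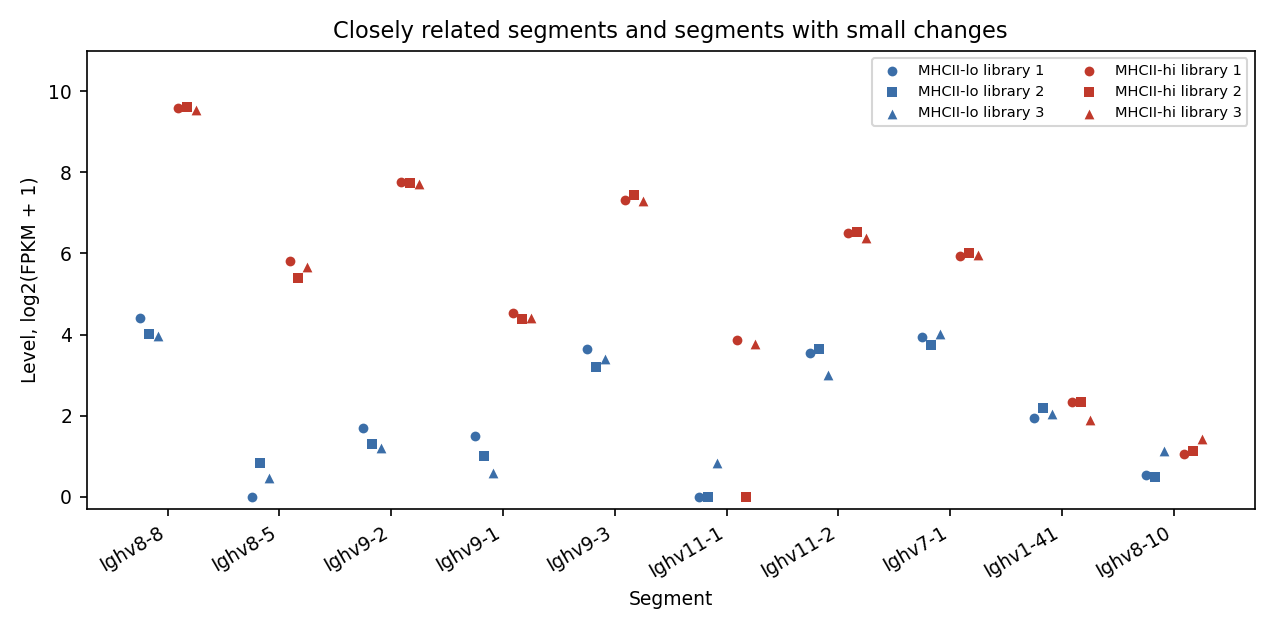
Level of 10 segments in each library, as log2(FPKM + 1), with MHCII-lo in blue and MHCII-hi in red and a marker shape for each library number. Ighv9-2 starts below Ighv9-3 in MHCII-lo and ends above it in MHCII-hi, MHCII-hi library 2 of Ighv11-1 stands at 0, and the groups overlap for Ighv11-1, Ighv1-41 and Ighv8-10.

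The other 7 of the 10 largest changes had log2 changes of 4.94 to 5.20, from Ighv1-75 to Ighv1-82. Of these, 6 belong to family 1, the largest family of the mouse, and the remaining one is Ighv3-6. Ighv1-82 lies near the far end of the locus, and was at 5.21, 4.04 and 2.61 FPKM in MHCII-lo and at 170.9, 176.2 and 182.5 FPKM in MHCII-hi. Ighv1-52 was at 1.22, 0.73 and 0.74 FPKM and at 66.7, 63.3 and 73.0 FPKM. Ighv1-18, Ighv1-80, Ighv1-9 and Ighv1-75 had MHCII-hi means of 177.6, 163.2, 130.5 and 132.7 FPKM and ratios of 38.3, 39.8, 40.6 and 39.1. In each of these segments the 3 MHCII-hi libraries lay close together and far above MHCII-lo.

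Ighv7-1 was prominent in MHCII-lo and changed by less than most segments. This is the segment used by the classical mouse antibodies to phosphorylcholine. It was at 14.5, 12.4 and 15.2 FPKM in MHCII-lo and at 59.9, 63.7 and 61.6 FPKM in MHCII-hi. It did rise, with a log2 change of 2.07 ± 0.07 (SE; limma adjusted p = 9.39e-07), but its ratio of 4.41 was the lowest among the called segments with a MHCII-lo mean of at least 1 FPKM. Its share of Ighv FPKM fell from 5.21% to 0.996%, and its rank went from 2 to 32. Ighv1-49, named after its values were seen, had a ratio of 4.99, from 6.5, 5.32 and 2.88 FPKM to 23.7, 23.8 and 25.8 FPKM. Ighv1-39 and Ighv1-26, the other prominent family 1 segments of MHCII-lo, rose from means of 12.7 and 10.27 FPKM to 181.7 and 199.1 FPKM, ratios of 14.3 and 19.4.

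Ighv11-2, known from the B-1 cell antibodies that bind phosphatidylcholine, was at 10.8, 11.5 and 7.02 FPKM in MHCII-lo and at 90.0, 91.4 and 81.8 FPKM in MHCII-hi. The log2 change was 3.07 ± 0.16 (SE; limma adjusted p = 6.23e-06). Its near copy Ighv11-1 was listed at 0, 0 and 0.78 FPKM in MHCII-lo and at 13.58, 0 and 12.67 FPKM in MHCII-hi. MHCII-hi library 2 thus stood apart from its group, and Ighv11-1 did not pass (log2 change 2.27 ± 1.01 SE; limma adjusted p = 0.0863). Without that library its log2 change was 3.54 with a limma adjusted p of 0.000132. The 2 segments summed to 103.5, 91.4 and 94.4 FPKM in the MHCII-hi libraries. The SD of this sum was 6.32 FPKM, against 7.59 FPKM for Ighv11-1 alone and 5.19 FPKM for Ighv11-2 alone. Whether the reads of library 2 were assigned to Ighv11-2 was not tested.

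The other tested segments that did not pass are both annotated as pseudogenes. Ighv1-41 was at 2.84, 3.54 and 3.09 FPKM in MHCII-lo and at 4.01, 4.06 and 2.69 FPKM in MHCII-hi. The groups overlapped, with a log2 change of 0.13 ± 0.13 (SE; limma adjusted p = 0.419), which became 0.28 with an adjusted p of 0.0263 without MHCII-hi library 3. Ighv8-10 was at 0.46, 0.41 and 1.18 FPKM and at 1.07, 1.18 and 1.7 FPKM, with a log2 change of 0.48 ± 0.19 (SE; limma adjusted p = 0.064). It passed with median-of-ratios scaling (limma adjusted p = 0.0472), and both pseudogenes lay far below the median change of the set.

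At the low end of the called segments stood Ighv1-56, Ighv7-4, Ighv1-43, Ighv5-2 and Ighv3-4, with log2 changes of 1.30, 1.32, 1.41, 1.48 and 1.58. All had MHCII-hi means under 3 FPKM, where the added 1 FPKM compresses the change, and their ratios of mean FPKM were 10, 14.1, 21.1, 8.24 and 13.5. Ighv5-2 is the functional segment nearest to the D segments and is joined with preference in early B cell precursors. It was at 0, 0.56 and 0.41 FPKM in MHCII-lo and at 3.14, 2.04 and 2.81 FPKM in MHCII-hi, low in both groups beside its neighbour Ighv2-2. Ighv2-2 was at 1.76, 2.54 and 2.37 FPKM and at 42.2, 45.2 and 43.3 FPKM.

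Every family rose as a sum, but not by the same factor. Family 1, with 75 of the rows, had 49 of its 50 tested segments higher, against 27.2% of all tested genes. Of its rows, 30 had a MHCII-lo mean of at least 1 FPKM, and its other tested segments passed the filter through MHCII-hi. The family's sum went from 136.2 to 3322 FPKM, a ratio of 24.4. Among families supplying over 2% of Ighv FPKM in MHCII-lo, families 8, 9 and 3 had the highest ratios, at 39.2, 29.8 and 27.0. Of these families, 5, 2, 11 and 7 had the lowest, at 23.2, 12.8, 9.62 and 5.89. The high ratios rested largely on the leading segments Ighv8-8, Ighv9-2 and Ighv3-6, with ratios of 46.1, 126.7 and 35.8. Ighv9-1, Ighv9-3 and Ighv9-4 had ratios of 18.7, 16.7 and 10.98. Ighv3-1, Ighv3-8 and Ighv8-12 had ratios of 11.8, 11.24 and 16.25. Among segments of these families with a ratio, only Ighv8-5, Ighv8-2 and Ighv3-3 exceeded their leading segment. Theirs were 127.1, 61.3 and 44.05, from MHCII-lo means under 1 FPKM. The smaller families 4, 6, 10, 12, 13, 14 and 15 had ratios of 12.1 to 36.5. Their leading segments Ighv4-1, Ighv6-3, Ighv10-1, Ighv12-3, Ighv13-2, Ighv14-3 and Ighv15-2 all rose, by 4.16, 3.84, 3.90, 2.79, 2.37, 3.85 and 3.58 on the log2 scale. Ighv12-3, like Ighv11-2 a segment of antibodies to phosphatidylcholine, was at 0.88, 1.31 and 1.22 FPKM in MHCII-lo and at 17.1, 13.04 and 11.5 FPKM in MHCII-hi.

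Shares within the Ighv sum do not depend on how whole libraries are scaled. Family 2 is led by Ighv2-9, which rose from 10.2, 8.74 and 9.27 FPKM to 100.3, 97.4 and 96.3 FPKM. The family took 9.30% to 9.47% of Ighv FPKM in MHCII-lo, against 5.21% to 5.25% in MHCII-hi. Family 7 went from 5.42% to 6.53% down to 1.42% to 1.60%, and family 11 from 3.08% to 4.49% down to 1.46% to 1.68%. Family 8 went the other way, from 8.25% to 8.70% up to 14.1% to 14.8%. That difference rested on 1 segment: without Ighv8-8, family 8 supplied 2.51% ± 0.32 in MHCII-lo, against 2.46% ± 0.217 in MHCII-hi (SD, n = 3). Families 3 and 9 also took more in MHCII-hi, and their leading segments carried it. By mean share, Ighv3-6 went from 2.45% to 3.83% and Ighv9-2 from 0.610% to 3.4%. Ighv9-1, Ighv9-3 and Ighv9-4 each took less in MHCII-hi, as did Ighv3-1, Ighv3-2, Ighv3-4 and Ighv3-8. Only Ighv3-3 and Ighv3-5 took more beside the leading segments. Family 1 took 49.5% to 50.9% in MHCII-lo, against 53.2% to 54.0% in MHCII-hi, and family 5, led by Ighv5-9-1, stayed between 5.89% and 6.83% in all libraries. The library ranges did not overlap between the groups for families 1, 2, 3, 7, 8, 9, 11 and 12, and 3 libraries against 3 cannot give an exact permutation p below 0.1.

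**Figure D3:**
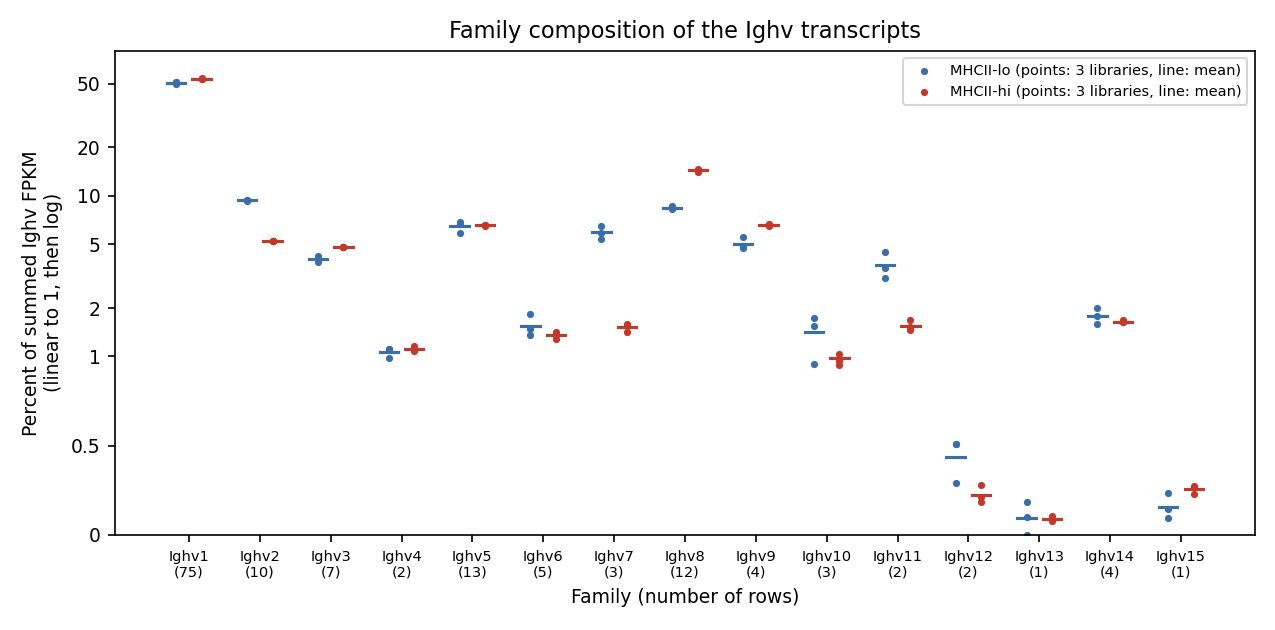
Share of the summed Ighv FPKM taken by each of the 15 families, in percent on an axis that is linear up to 1 and logarithmic above; points are the 3 libraries of a group and short lines their mean. Families 2, 7, 11 and 12 take less of the sum in MHCII-hi (red) than in MHCII-lo (blue) without overlap of the libraries, and families 1, 3, 8 and 9 take more.

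The spread over segments was broad in both groups. The number of segments at 1 FPKM or more was 57 to 62 in the MHCII-lo libraries and 102 to 103 in the MHCII-hi libraries. The 10 most abundant segments supplied 40.0% of Ighv FPKM in MHCII-lo, against 41.6% in MHCII-hi, and 5 of the 10 were the same. The effective number of segments, the exponential of the Shannon entropy of the shares, was 55.2 ± 1.08 in MHCII-lo, against 52.8 ± 0.69 in MHCII-hi (SD, n = 3). Across the 144 rows the order of mean levels was similar between groups (Spearman rho 0.919), and across the 63 rows with a MHCII-lo mean of at least 1 FPKM rho was 0.685. Between 1 and 10 FPKM the median coefficient of variation over replicates was 18.4% for 59 segments in MHCII-lo, against 22.5% for 24 segments in MHCII-hi, and between 10 and 100 FPKM it was 14.7% for 4 segments, against 6.68% for 63.

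The rise extended along the whole locus. Distances are given from Ighj1, the first J segment (chr12:113429781-113429833), and run from 143.1 kb for the pseudogene Ighv5-1 to 2570.2 kb for Ighv1-85. Ighv5-1 was listed at 0 in 5 libraries and at 0.11 FPKM in MHCII-lo library 2. Ighv1-85 was at 0.52, 0.55 and 0.42 FPKM in MHCII-lo and at 16.0, 15.1 and 13.4 FPKM in MHCII-hi, so the outermost segment also rose (log2 change 3.40 ± 0.07 SE; limma adjusted p = 1.28e-07). When the 142 placed segments were cut into 4 blocks of 36, 36, 35 and 35 by position, 27 of 28, 27 of 27, 19 of 20 and 23 of 24 tested segments were higher, from the nearest block to the farthest, against 27.2% of all tested genes. Of those with a MHCII-lo mean of at least 1 FPKM, 21 of 21, 17 of 17, 9 of 10 and 15 of 15 were higher, against 25.7% of such genes, the exception being Ighv1-41.

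The blocks did not rise by the same factor. Their summed FPKM rose 16.6, 28.0, 17.4 and 33.3 times from the nearest block to the farthest. The farthest block, from 1864.2 kb, supplied 26.2% to 26.4% of Ighv FPKM in MHCII-lo, against 37.7% to 38.4% in MHCII-hi. Ighv8-8 lies in it, and without Ighv8-8 its share was 21.5% ± 0.547 and 29.5% ± 0.264 (SD, n = 3), a difference larger than the spread between libraries. The nearest block went from 32.3% ± 0.226 to 23.3% ± 0.136 (SD, n = 3). As a description across segments, the log2 change of the 99 tested segments had a Spearman rho of 0.28 with distance. The level of the 110 V genes had a rho of -0.04 in MHCII-lo, against 0.09 in MHCII-hi, so level itself followed distance little. These points share libraries, and neighbours are often close in sequence.

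**Figure D4:**
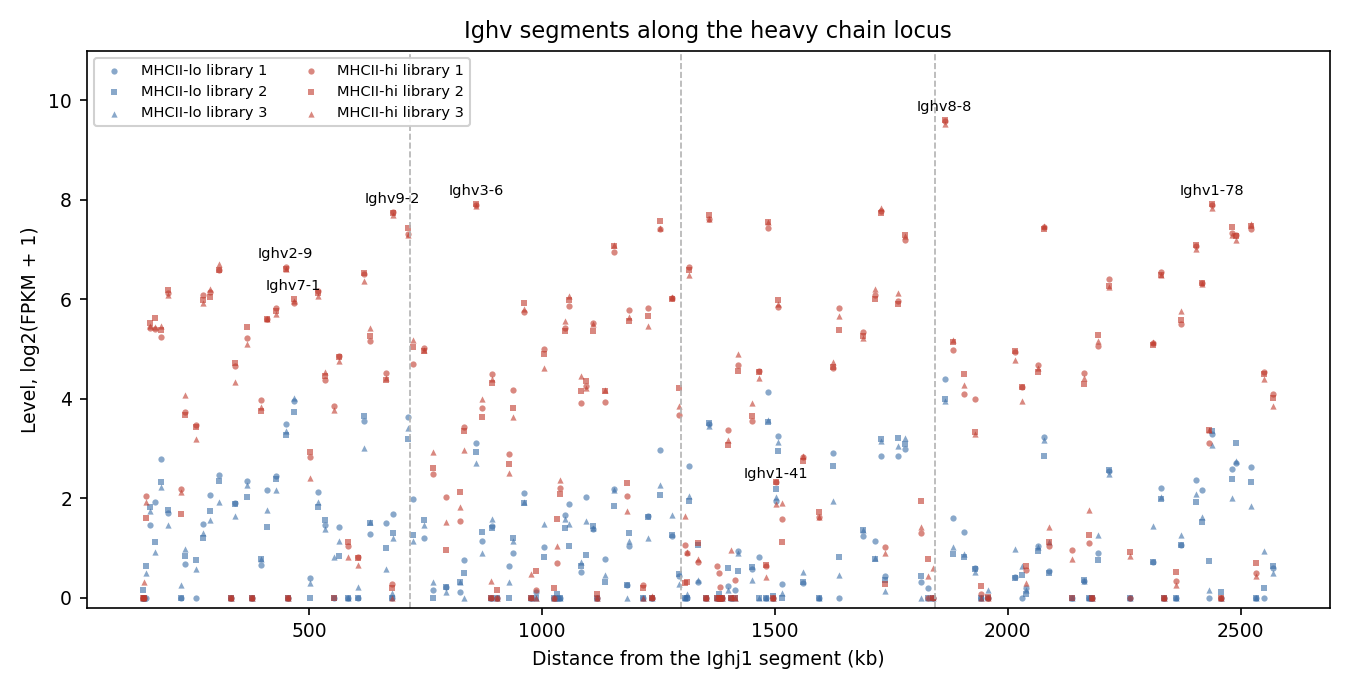
Level of each placed Ighv segment in each library, as log2(FPKM + 1), against its distance from Ighj1 in kb; blue marks MHCII-lo, red MHCII-hi, marker shapes the library number, and dashed lines the borders of the 4 blocks. For 96 of the 99 tested segments red points lie above blue points, from one end of the locus to the other, with Ighv8-8 highest in the farthest block. Many rows under the filter lie near 0 and overlap, and Ighv5-1 is above 0 only in MHCII-lo.

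V genes supplied nearly all of the Ighv signal, and most pseudogenes stood near 0. Of the 110 V genes, 96 were tested and 95 were called higher, against 27.2% of all tested genes, while Ighv11-1 did not pass. The 62 V genes with a MHCII-lo mean of at least 1 FPKM were all called higher, against 25.7% of such genes. The other tested V genes passed the filter through MHCII-hi. Of the 32 pseudogenes, 3 were tested. Ighv1-2 rose, having passed the filter through MHCII-hi alone, and only Ighv1-41 had a MHCII-lo mean of at least 1 FPKM. V genes summed to 266.1 FPKM in MHCII-lo, against 6180 FPKM in MHCII-hi, a ratio of 23.2. Pseudogenes summed to 4.12 and 15.8 FPKM, a ratio of 3.84, and their share of Ighv FPKM went from 1.18% to 1.80% in the MHCII-lo libraries to 0.237% to 0.275% in the MHCII-hi libraries. Ighv1-41 held most of the MHCII-lo sum, and without it pseudogenes summed to 0.96 ± 0.433 and 12.2 ± 1.82 FPKM (SD, n = 3), a ratio of 12.7, or 0.363% ± 0.186 and 0.197% ± 0.0308 of Ighv FPKM.

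Many V segments hold codons for tyrosine, tyrosine and cysteine near their 3′ end, just before the antigen-binding loop that the join completes. The motif TANTANTGT covers these codons where cysteine is TGT, but N stands for any base, so it also matches stop codons. It was searched on the coding strand only, in any frame and at any position. A match is therefore not shown to be these codons. The motif occurred in 77.0% of 113 annotated V gene transcripts and 48.6% of 70 annotated V pseudogenes. It occurred in the first 350 bases of 0.951% of 127182 other transcripts. Ighv8-8 and Ighv8-5 hold it in the sequences shown, and the family 9 and family 11 segments shown do not.

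Segments with and without shared sequence both rose. Of the 36 tested segments that shared no 75-base window with another gene, 34 were higher, with a median log2 change of 3.53. Of the 63 that shared one, 62 were higher, with a median of 3.90. Of all tested genes, 27.2% were higher. Both sets hold segments with a MHCII-lo mean under 1 FPKM, which passed the filter through MHCII-hi. Only 4 segments shared at least 50% of their windows: Ighv1-71 with Ighv1-62-2, which differ at 1 base, and Ighv1-72 with Ighv1-62-3, which differ at 3. All 4, named after their values were seen, rose. Ighv1-72, the segment of the classical C57BL/6 response to the hapten nitrophenyl, went from 3.61, 2.99 and 3.09 FPKM to 92.3, 89.5 and 89.0 FPKM.

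Kappa V and heavy chain J sums and the tested heavy chain constant genes rose beside the V segments. The 118 kappa light chain V rows, which encode the variable part of the partner chain, summed to 289.9 to 349.5 FPKM in MHCII-lo, against 6333 to 6342 FPKM in MHCII-hi, a ratio of 20.4 against 22.9 for Ighv. The ratio of the Ighv to the kappa V sum was 0.871 ± 0.013 in MHCII-lo, against 0.978 ± 0.00689 in MHCII-hi (SD, n = 3). Heavy chain J segments rose 16.7-fold as a sum. The 7 tested heavy chain constant genes all rose, against 27.2% of tested genes, with a median log2 change of 3.95, and their sum went from 225.2 to 242.4 FPKM up to 2891 to 2908 FPKM.

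The constant genes differed by class. Ighm, the constant region of IgM, was at 165.2, 165.1 and 163.0 FPKM in MHCII-lo and at 854.3, 857.3 and 854.3 FPKM in MHCII-hi, a ratio of 5.20. Igha, the constant region of IgA, was at 30.4, 24.2 and 24.2 FPKM and at 1037, 1026 and 1038 FPKM, a ratio of 39.3. Ighm was thus the leading class in MHCII-lo and Igha in MHCII-hi. Ighg2c, Ighg3, Ighg2b, Ighg1 and Ighd had ratios of 34.9, 45.4, 16.1, 14.9 and 10.5. The V to constant ratio was 1.16 ± 0.0699 in MHCII-lo, against 2.14 ± 0.0191 in MHCII-hi (SD, n = 3). The direction rested on Ighm, and without it the ratio was 3.97 ± 0.0928 in MHCII-lo, against 3.04 ± 0.0319 in MHCII-hi (SD, n = 3).

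Genes of V(D)J joining moved in both directions, as tested genes did at large. Of 12 tested genes, 5 were higher and 5 lower, against 27.2% and 40.5% of all tested genes, and the median log2 change was -0.10 against -0.08. Both the lower share and the median thus lay near those of all tested genes. Rag1, a subunit of the recombinase, was at 1.31, 1.52 and 1.58 FPKM in MHCII-lo and at 9.48, 9.35 and 9.81 FPKM in MHCII-hi, with a log2 change of 2.10 ± 0.06 (SE; limma adjusted p = 3.01e-07). Rag2, its partner, and Dntt, which adds bases at the joints, rose by 0.89 and 0.66 on the log2 scale, as did the nuclease Dclre1c by 0.30 and the ligase Lig4 by 0.65. Those lower were the repair genes Prkdc, Xrcc5 and Xrcc4 and the bending proteins Hmgb1 and Hmgb2, by 0.49 or less, and the call of Xrcc4 did not hold with median-of-ratios scaling (limma adjusted p = 0.137). Xrcc6 and Nhej1 did not pass.

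Of 20 regulators of the heavy chain locus, 12 were higher and 7 lower, against 27.2% and 40.5% of all tested genes, with a median log2 change of 0.44. The share that was lower lay near that of all genes. The B lineage factors were among the higher: Pax5, which is needed to contract the locus so that distant V segments can be joined, went from 1.04, 1.01 and 1.02 FPKM to 12.5, 12.3 and 12.9 FPKM. Ebf1, Irf4, Bach2 and the octamer coactivator Pou2af1 had ratios of 7.93, 9.01, 6.80 and 10.5. The architectural genes Ctcf, Rad21, Smc3 and Wapl, which form and release chromatin loops, and the factors Yy1, Ezh2 and Irf8 were lower, by 0.09 to 0.35 on the log2 scale. With median-of-ratios scaling Ctcf, Smc3 and Yy1 did not pass (limma adjusted p = 0.999, 0.0827 and 0.14), nor did Ctcf with quantile normalization (0.16).

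Markers of B cells and plasma cells moved with the V segments. All 13 tested B cell markers of 15 rose, against 27.2% of all tested genes, with a median log2 change of 2.21 against -0.08. The summed level of the 15 went from 61.7 to 65.0 FPKM in MHCII-lo up to 283.2 to 287.5 FPKM in MHCII-hi. Ms4a1, the CD20 antigen of mature B cells, went from 0.23, 0.26 and 0.18 FPKM to 6.4, 6.76 and 6.62 FPKM. All 7 plasma cell markers rose, against the same 27.2%, with a median of 1.79, and their sum went from 75.6 to 78.9 FPKM up to 444.7 to 451.5 FPKM. Ms4a1, Ebf1, Fcmr, Bank1, Prdm1, Tnfrsf17 and Derl3 had MHCII-lo means under 1 FPKM and passed the filter through MHCII-hi. Jchain, which joins IgM and IgA into polymers, went from 19.8, 16.4 and 16.6 FPKM to 343.7, 337.2 and 342.9 FPKM. Prdm1 and Xbp1, factors of plasma cell differentiation, had ratios of 3.47 and 1.27. No marker of either list was at 0 in all libraries, and Cr2 and Fcer2a, left untested at under 1 FPKM, had MHCII-lo means of 0.00333 and 0.07 FPKM. The part of these cells in the Ighv result was not tested.

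Wider lists of the same lineage held genes that did not rise. Of 10 tested genes of the pre-B cell receptor and its signalling, 8 were higher, against 27.2% of all tested genes, with a median log2 change of 1.36. The surrogate light chain genes Vpreb1 and Igll1 had ratios of 1.68 and 2.02 and the signalling chain Cd79a one of 11.7, while Btk and Lyn did not pass. Of 14 plasma cell pathway genes, 10 were higher and 2 lower, against 27.2% and 40.5% of all tested genes, with a median of 1.04, the lower ones being the endoplasmic reticulum genes Creld2 and Edem1.

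Marker lists of other lineages gave mixed counts, and their median log2 changes ran from -0.52 for erythroid to 0.67 for dendritic cell markers. The counts stand against 27.2% higher and 40.5% lower over all tested genes, and several lie near these shares. T cell markers had 9 of 11 tested higher and 1 lower, with sums of 86.3 to 87.1 and 129.7 to 133.7 FPKM. Neutrophil markers had 7 of 11 higher, 6 with quantile normalization, and 3 lower, with sums of 16013 to 16077 and 21428 to 21708 FPKM, the highest of any list. Dendritic cell markers had 6 of 7 tested higher and 1 lower, Bst2, which did not pass with median-of-ratios scaling (limma adjusted p = 0.0626), with sums of 89.6 to 90.6 and 122.1 to 127.4 FPKM, and macrophage markers 4 of 7 higher and 2 lower, with sums of 141.8 to 144.5 and 161.9 to 164.4 FPKM. NK cell markers had 3 of 7 higher and 2 lower, with sums of 181.1 to 185.7 and 157.1 to 163.6 FPKM. Erythroid markers had 9 of 10 lower, with sums of 999.1 to 1024 and 695.7 to 720.6 FPKM. Megakaryocyte markers had 3 of 6 tested higher, 2 with quantile normalization (Gp1ba, limma adjusted p = 0.0614), with sums of 22.1 to 24.4 and 31.1 to 34.0 FPKM, and stem cell markers 7 of 11 higher and 1 lower, with sums of 175.9 to 178.8 and 182.8 to 190.1 FPKM.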

How the data were processed

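Column-purified RNA of the sorted cells gave 3 MHCII-hi and 3 MHCII-lo stranded mRNA libraries, per the labels' protocols. The tools listed are HISAT2, StringTie and fastp, and the builds mm10 and GRCm38, per the submitters' processing notes; no source used here gives settings. The deposited files pair a symbol with 1 value, taken as FPKM as StringTie writes it, since the file headers name no unit; the authors' scaling for library size and length makes abundant transcripts lower all others. Since depth is unknown, no counting intervals are given.

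Genes whose mean reached 1 FPKM were tested with limma 3.58.1 (trend, two-sided) in R 4.3.3 on log2(FPKM + 1), which understates changes of low genes, with Benjamini-Hochberg adjustment over 12295 genes and a threshold of 0.05. No library pair held identical values. The fit was tested on simulated data. Annotation, sequences and coordinates came from GENCODE M21, aligned with Biopython 1.88 (identity over at least 200 aligned bases, gaps left out). Promoter sequences from RefSeq matched 0 members and none is shown. Named segments are the top of each family, the 10 largest and 5 smallest called changes, those not passed, the 5 largest MHCII-lo shares and the segments at the ends of the locus. Members and gene lists were chosen with earlier results of these data known. Alternatives varied the pseudocount, filter, scaling, variance trend, replicate block and libraries. Rows that share a symbol, 70 beyond the first of 67 symbols, were kept apart. A marker gene is not reported here by name.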

Additional observations from a re-analysis of the deposited data

How the results depend on the processing

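Between 79 and 106 Ighv segments were higher under every alternative fitted to single segments, 79 of 79 tested at a mean of at least 5 FPKM and 106 of 136 with no filter, and no tested segment was lower. In the main fit 27.2% of all tested genes were higher, and the matching shares under most alternatives are not given here. Leaving out 1 library gave 93 to 96 higher and 92 to 96 at least 2-fold higher; the segments no longer counted had left the test, since their mean fell under the filter. Segments linked by at least 95% identity were also summed, an alternative chosen after seeing the data, and 67 of 69 groups were higher. The median log2 change was 4.52 and 4.76 with pseudocounts of 0.1 and 0.01, 2.99 with no filter, 3.93 at a mean of at least 5 FPKM, 3.56 with sequence groups summed and 3.64 to 3.80 with 1 library left out; the pseudocount and the set of segments tested differ by construction. Same-numbered libraries deviated together little (r = 0.0626, 0.0019 and 0.0804), so the numbers were not taken to pair them; libraries 1 and 3 of each group correlated best with their own number, and library 2 did not. With the replicate block 98 segments were higher and 97 at least 2-fold, Ighv8-10 and Ighv11-1 being gained (limma adjusted p = 0.0122 and 0.0491). Of 490 values of 34 named segments under alternatives, 485 kept direction and side of the threshold and 5 passed where they had not. Without mitochondrial transcripts in the sum the MHCII-hi share was 2.12%. Counting segments at 1 FPKM or more in place of FPKM, family 1 took 48.3% and 51.1% and family 8 took 3.88% and 5.86% in MHCII-lo and MHCII-hi; without Ighv8-8, chosen after seeing the data, family 1 took 53.7% and 61.1%, family 8 took 2.51% and 2.46% and the farthest block 21.5% and 29.5%. With 2 blocks the farther one took 52.7% and 58.3%, and with V genes only the farthest of 4 took 26.5% in MHCII-lo. The V to constant ratio was 3.97 and 3.04 without Ighm, and the pseudogene share 0.363% and 0.197% without Ighv1-41, in MHCII-lo and MHCII-hi, both alternatives chosen after seeing the data. Levels near or under 1 FPKM in MHCII-lo, with 60 rows at 0 in at least 1 library, limit the ratios of low segments, and no counts were at hand to give their precision.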
